A study of Mus musculus with 6 samples.

Results

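The genes described here encode the GABA rho subunits (*Gabrr1*, *Gabrr2*, and *Gabrr3*) and the glycine receptor subunits (*Glra1*, *Glra2*, *Glra3*, *Glra4*, and *Glrb*). Both families of inhibitory receptors include ones found on the axon terminals of retinal bipolar cells (BCs). The genes were taken by gene symbol, and all 8 were among the 21744 genes of the table. RNA was sequenced from whole retinas of 3 control mice and 3 *Lhx4* null mice of a mixed C57BL/6J and 129S6 background at postnatal day 7 (P7), with the pigment epithelium removed and the retinas of each mouse pooled as 1 library. In the study's methods, *Lhx4* null mice carried a tdTomato knock-in allele and a loxP allele of *Lhx4* with *Six3-Cre*, a driver active in the developing retina, and mice of both sexes were used. Which alleles the control mice of the sequencing carried is not given in the sources used here.

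A rho receptor is a chloride channel built from rho subunits only. It opens slowly and stays open for long at low GABA, and in the retina it is best known from BC terminals, where GABA from amacrine cells (ACs) limits glutamate release. Glycine receptors are chloride channels that join alpha subunits, which bind glycine and set the kinetics, to the beta subunit encoded by *Glrb*, which ties the channel to the scaffold protein gephyrin. AII ACs inhibit the terminals of OFF-BCs through receptors with the alpha1 subunit, whereas alpha2, alpha3, and alpha4 subunits are used mainly by ACs and ganglion cells.

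*Gabrr2* and *Gabrr1* are neighbours on the plus strand of chromosome 4 (GRCm38, GENCODE vM21; chr4:33062999-33095865 and chr4:33132521-33163588), with 36655 bases between them, whereas *Gabrr3* is at chr16:59407332-59464504. Their upstream sequences are printed because the ratio of the neighbours *Gabrr1* and *Gabrr2* did not overlap between the groups (values below). The ratio of *Gabrr3* to *Gabrr2*, on different chromosomes, did not overlap either, whereas that of *Gabrr1* to *Gabrr3* did. These ratios share their terms, and the part of position on the chromosomes was not tested. RefSeq (GRCm38.p6) held an entry for 7 of the 8 genes, with *Glra1* the exception. Each sequence ends before the earlier of the RefSeq and GENCODE starts, is written 5′ to 3′ on the plus strand, and has matches to the motifs searched in capitals.
*Gabrr1*, chr4:33132306-33132520: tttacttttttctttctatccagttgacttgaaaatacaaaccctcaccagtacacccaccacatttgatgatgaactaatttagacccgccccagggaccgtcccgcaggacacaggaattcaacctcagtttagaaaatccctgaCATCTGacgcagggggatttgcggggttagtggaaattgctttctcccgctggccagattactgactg
*Gabrr2*, chr4:33062862-33062998: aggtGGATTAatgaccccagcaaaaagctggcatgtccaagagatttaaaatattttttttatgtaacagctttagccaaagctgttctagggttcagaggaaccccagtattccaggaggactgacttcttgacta
*Gabrr3*, chr16:59407132-59407331: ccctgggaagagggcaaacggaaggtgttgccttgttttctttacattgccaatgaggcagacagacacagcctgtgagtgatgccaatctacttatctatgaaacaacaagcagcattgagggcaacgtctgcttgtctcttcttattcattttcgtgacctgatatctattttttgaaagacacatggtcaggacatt

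These letter strings were searched on both strands of the 250 bases before each start: TAATTA, a LIM-homeodomain core; TAATCC, the core bound by OTX2 and CRX; and CAGATG and CATATG, E-boxes of the kind bound by neural basic helix-loop-helix factors. The only matches in the 7 genes were CAGATG on the minus strand of *Gabrr1* at position -103 and TAATCC on the minus strand of *Gabrr2* at position -246, counted from the RefSeq start. Among 32851 upstream windows of this length, 14.4% held CAGATG, 6.25% held TAATCC, 4.84% held TAATTA, and 3.46% held CATATG. A match describes the letters in this window and is not a binding site.

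The deposited values are FPKM, fragments per kilobase of transcript, scaled to the mapped fragments of the library, so levels can be compared between genes. The steps of the lowest values gave an estimated 27000000 to 35200000 fragments per control library and 16600000 to 23300000 per library labelled *Lhx4* null, so every control library was the deeper. The level of *Lhx4* itself in FPKM was 20.9, 23.8, and 19.1 among the control libraries but 31.2, 30.3, and 29.0 among the others (adjusted p = 0.098 from limma, with a log2 fold change of 0.51). What the knock-in and loxP alleles add to this level was not tested, so it does not decide whether LHX4 was lost. The second group is called the null-labelled libraries throughout, and every direction below rests on that label. *Bhlhe23*, a BC transcription factor, ranked 1 of all genes tested by p-value and stood at 10.2, 13.0, and 10.6 FPKM in control libraries against 0.814, 0.563, and 0.830 FPKM in the null-labelled ones (log2 fold change -3.78). Transcripts of the Y-linked genes *Ddx3y*, *Eif2s3y*, *Kdm5d*, and *Uty* were in control replicate 2 at 36.7% to 51.7% of control replicate 1, a level between that of null replicate 3 (88.6% to 106%) and those of the other 3 libraries (1.90% or less), although a library is described as 1 mouse. The steps also placed the libraries in 2 sets that cross genotype, control replicates 1 and 3 with null replicate 3, and control replicate 2 with null replicates 1 and 2. From 94 to 143 low genes shared a step ratio in the pairs within a set, and 24 to 34 in the pairs across sets. Values within each set are given beside the results they touch.

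Of the BC genes in a list of 19 markers, 17 had lower means in the null-labelled libraries, 5 of them at an adjusted p under 0.05 from limma, with a median log2 fold change of -0.70. Their FPKM summed to 1122 to 1327 in the control group, above the 947 to 964 of the null-labelled libraries. The sums of 8 Müller glia genes (604 to 664 against 724 to 756 FPKM), 8 cone genes (352 to 498 against 561 to 680 FPKM), and 7 pigment cell genes (17.0 to 35.4 against 36.8 to 64.3 FPKM) were higher in every null-labelled library, and those of 15 AC genes (638 to 696 against 693 to 756 FPKM) overlapped between the groups. The cone genes did not move together, since *Opn1sw* rose (log2 fold change 0.88, adjusted p = 0.031 from limma) while *Arr3* and *Opn1mw* were lower without overlap (-1.27 and -1.77, adjusted p = 0.077 and 0.097). Of the AC genes, 13 of 15 were higher, 5 of them without overlap and 4 at an unadjusted p under 0.05, with a median log2 fold change of 0.15 and 0 called. In the Müller glia sum the most abundant gene, which weighs most in it, was *Apoe* (272 to 301 against 356 to 388 FPKM). In the pigment cell sum it was *Ttr* (11.9 to 25.9 against 27.8 to 48.5 FPKM). In the cone sum it was *Gngt2*, at 287, 157, and 296 FPKM against 237, 350, and 406 FPKM, which overlapped (adjusted p = 0.70 from limma). Of the 8 Müller glia genes 2 were higher without overlap, as were 2 of the 7 pigment cell genes, against 8.1% of all genes tested. No marker of these lists was at 0 in all libraries. In whole retina, fewer cells of a type and less RNA per cell cannot be told apart, and the part of these shifts in the values below was not tested.

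In the control retina, *Gabrr1* had the highest level of the 8 genes at 17.9 ± 3.9 FPKM (mean ± SD, n = 3), followed by *Glrb* at 13.7 ± 0.64 FPKM, *Gabrr3* at 9.62 ± 1.75 FPKM, and *Glra2* at 7.61 ± 0.39 FPKM. The ranges of these neighbours did not overlap. *Glra3* (1.19 ± 0.14 FPKM), *Gabrr2* (1.13 ± 0.36 FPKM), and *Glra1* (1.01 ± 0.16 FPKM) followed with overlapping ranges, and *Glra4* was lowest at 0.131 ± 0.017 FPKM. In the null-labelled libraries the order of the means was *Glrb*, *Glra2*, *Gabrr1*, *Gabrr3*, *Gabrr2*, *Glra3*, *Glra1*, and *Glra4*. The ranges of *Glra2* and *Gabrr1* overlapped there, as did those of *Gabrr2* and *Glra3*.

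**Figure D1:**
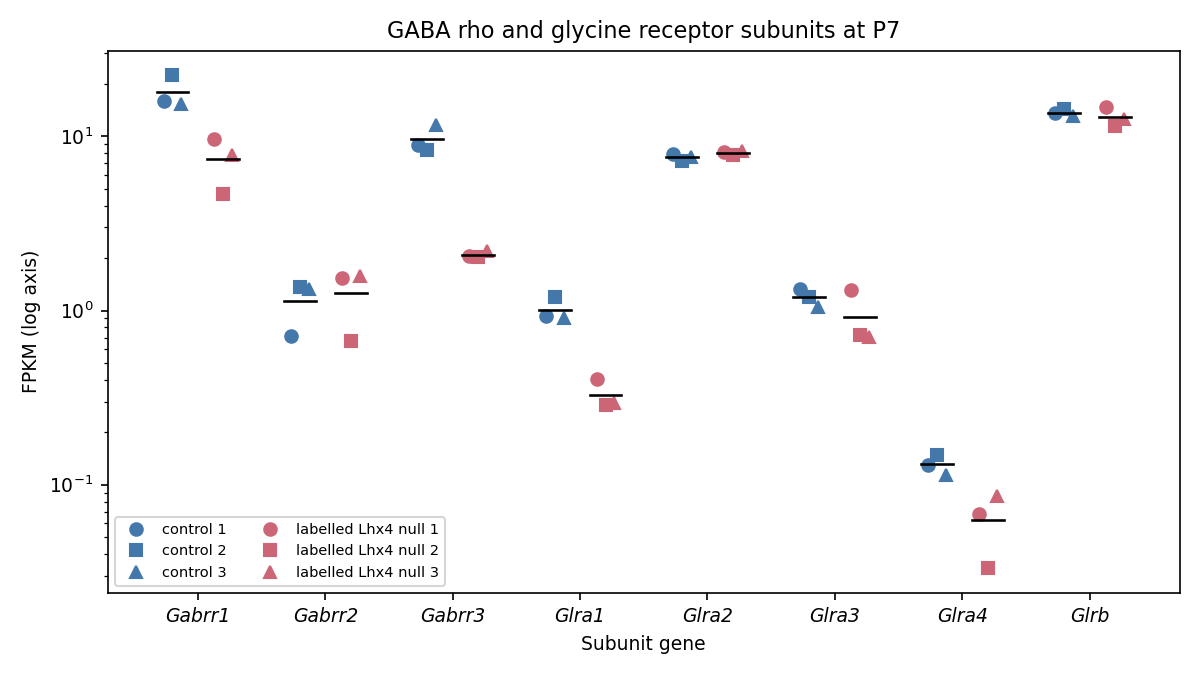
FPKM of the 8 subunit genes on a log axis, with 1 point per library (blue, control; red, labelled Lhx4 null; marker shape, replicate number) and a line at each group mean. The groups do not overlap for Gabrr1, Gabrr3, Glra1, and Glra4, whereas the points of Gabrr2, Glra2, Glra3, and Glrb overlap.

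The mean of *Glra4* over the 6 libraries was under 0.1 FPKM, and the other 7 genes entered the test across 15200 genes. In that test 1 of the 7 had an adjusted p under 0.05 (limma with Benjamini-Hochberg adjustment), *Gabrr3*, which fell, where 0.224% of all genes tested were called (0.138% lower and 0.0855% higher). At an unadjusted p under 0.05, 3 of the 7 were lower (*Gabrr3*, *Glra1*, and *Gabrr1*) and none higher, against 3.55% and 4.6% of all genes tested. The same 3 were lower without overlap between the groups, and none was higher without overlap, against 6.13% and 8.1% of all genes tested. The median log2 fold change of the 7 was -0.39 and that of all genes tested was 0.01.

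*Gabrr3*, which encodes the rho3 subunit, had FPKM of 8.94, 8.31, and 11.6 in the control libraries (replicates 1 to 3, in that order here and below), against 2.05, 2.03, and 2.19 in the null-labelled libraries. Every null-labelled library was far below every control library, and the 3 varied little among themselves (2.09 ± 0.091 FPKM, n = 3). The mean was 21.7% of the control mean. On the log2(FPKM + 0.1) scale, on which changes of low genes come out too small, the log2 fold change was -2.14 (standard error 0.14, 95% interval -2.45 to -1.82, adjusted p = 8.525e-04 from limma), which ranked *Gabrr3* at 4 of 15200 genes by p-value. It was -2.16 within the set of control replicates 1 and 3 and -1.98 within the set of control replicate 2. An estimated 959 to 1746 fragments per control library and 145 to 219 per null-labelled library lay behind these values. Of the exon bases of *Gabrr3*, 6.53% lie opposite *1700022E09Rik*, and whether strand was used in counting is not given.

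*Gabrr1* encodes rho1, the subunit that forms the rho receptors of BC terminals together with rho2. Control libraries held it at 15.9, 22.4, and 15.3 FPKM, and null-labelled libraries at 9.70, 4.68, and 7.79 FPKM. The groups did not overlap, but the spread within each was wide, with the highest control library 1.46 times the lowest and the highest null-labelled library 2.07 times the lowest. The mean was 41.4% of the control mean, a log2 fold change of -1.30 (standard error 0.26, 95% interval -1.89 to -0.72). The unadjusted p was 8.491e-04 and the adjusted p was 0.14 from limma, so *Gabrr1* did not pass over all genes tested. Its log2 difference was -0.99 within the set of control replicates 1 and 3 and -1.71 within the other set.

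Within the groups, *Gabrr1* varied together with several marker lists. The summed level of 9 rod genes was 4516 FPKM in control replicate 2, against 3922 and 3889 FPKM in control replicates 1 and 3, and 4198 FPKM in null replicate 1, against 3090 and 3370 FPKM in null replicates 2 and 3. In each group the library with the highest rod sum thus had the highest *Gabrr1*. The same libraries had the lowest sums of 5 mitotic genes, at 7.65 FPKM in control replicate 2 (15.9 and 16.7 FPKM in the others) and 9.60 FPKM in null replicate 1 (29.1 and 23.8 FPKM in the others). The BC genes *Sebox*, *Lrtm1*, and *Cabp5* were likewise highest in these libraries of each group, for example *Cabp5* at 25.8 FPKM in control replicate 2 and 30.2 FPKM in null replicate 1. Without control replicate 2 the log2 fold change of *Gabrr1* was -1.13, without null replicate 1 it was -1.53, and without null replicate 2 it was -1.01. The part of these markers in this was not tested.

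*Gabrr2*, the rho2 gene next to *Gabrr1*, had FPKM of 0.710, 1.36, and 1.32 in the controls and of 1.53, 0.665, and 1.58 with the null label. Both groups held a library near 0.7 FPKM and others above 1.3 FPKM, and they overlapped entirely. The log2 fold change was 0.11 (standard error 0.35, 95% interval -0.70 to 0.92, adjusted p = 0.96 from limma), and its sign turned when control replicate 1, null replicate 1, or null replicate 3 was left out (-0.17, -0.07, and -0.09). It was 0.65 within the set of control replicates 1 and 3 and -0.38 within the other set. A change as large as that of *Gabrr1* lies outside this interval, and a smaller one within it was not resolved by these libraries. An estimated 26 to 90 fragments per library give a counting error of 10.5% to 19.6%, and the libraries of each group varied by more than that. Of the stretches of 50 bases in their transcripts, 2.55% in *Gabrr1* and 2.77% in *Gabrr2* occur in a transcript of another gene.

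Within a library the FPKM ratio of 2 genes does not depend on the depth or scaling of that library. The ratio of *Gabrr1* to *Gabrr2* was 22.4, 16.5, and 11.6 in control libraries and 6.32, 7.04, and 4.92 in the null-labelled libraries, without overlap (log2 difference -1.43, exact permutation test, two-sided p = 0.1). For *Gabrr3* to *Gabrr2* it was 12.6, 6.11, and 8.79 against 1.33, 3.05, and 1.39 (log2 difference -2.30, exact permutation test, two-sided p = 0.1). That p is the smallest 3 libraries against 3 can give, here and below. The ratio of *Gabrr1* to *Gabrr3*, by contrast, overlapped, at 1.78, 2.69, and 1.32 against 4.74, 2.31, and 3.55 (log2 difference 0.87, exact permutation test, two-sided p = 0.2). A difference in the size of change between *Gabrr1* and *Gabrr3* was therefore not resolved.

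Summed over the 3 rho genes, control libraries reached 28.6 ± 3.3 FPKM and null-labelled libraries 10.7 ± 3.0 FPKM (n = 3 each), 37.5% of the control mean. *Gabrr1* made up 62.1 ± 7.8% of the control sum and 68.0 ± 4.8% of the other, and these shares overlapped. The share of *Gabrr3* was 35.0%, 25.9%, and 41.1% in control libraries and 15.4%, 27.5%, and 19.0% in the others, where the 27.5% of null replicate 2 lay above the 25.9% of control replicate 2. *Gabrr2* went from 3.90 ± 1.00% to 11.4 ± 2.3% of the sum without overlap, although its own FPKM overlapped between the groups.

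**Figure D2:**
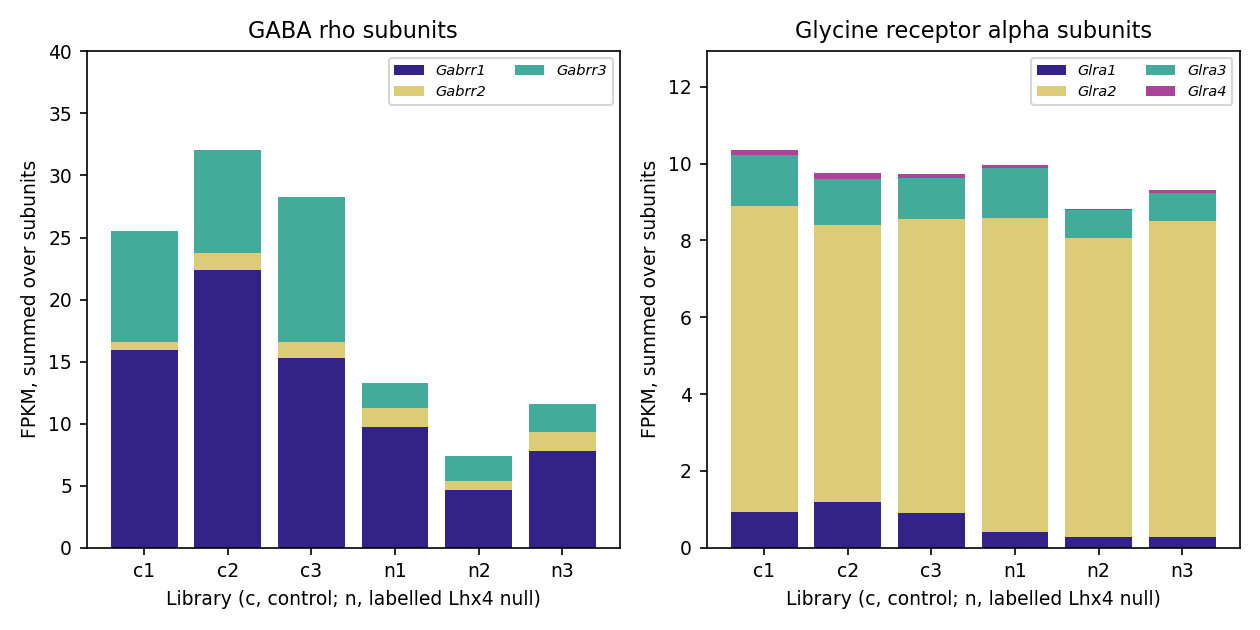
FPKM of the GABA rho subunit genes (left) and of the glycine receptor alpha subunit genes (right) stacked for each library (c, control; n, labelled Lhx4 null). The rho sum is 25.6 to 32.0 FPKM in control libraries and 7.38 to 13.3 FPKM in the others, whereas the alpha sum stays between 8.83 and 10.3 FPKM in all 6.

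Among the glycine receptor genes, *Glra1* encodes alpha1, the subunit of the fast receptors on OFF-BC terminals. Its FPKM of 0.925, 1.20, and 0.909 in the controls stood apart from 0.405, 0.288, and 0.294 with the null label. The mean was 32.6% of the control mean, a log2 fold change of -1.37 (standard error 0.21, 95% interval -1.85 to -0.90). The unadjusted p was 1.387e-04 and the adjusted p was 0.057 from limma, just above the threshold over all genes tested. It had an adjusted p of 0.049 from limma in 2 alternative fits, one with the pseudocount raised to 1 FPKM and the other without a variance trend, and of 0.049 to 0.25 over all alternatives. The log2 difference was -1.37 within the set of control replicates 1 and 3 and -1.55 within the other set. These are low levels, resting on an estimated 75 to 77 fragments per control library and 14 to 16 per null-labelled library. Counting alone thus gives an error of about 25% to 27% in the latter. Of the *Glra1* exon bases at chr11:55514238-55608198, 5.84% lie opposite *Gm12236*.

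*Glra2* encodes alpha2, the main alpha subunit of the developing nervous system, and it had the highest level of the 4 alpha genes. Control libraries held 7.96, 7.20, and 7.66 FPKM, next to 8.17, 7.78, and 8.22 FPKM in the null-labelled ones. The ranges overlapped, and the log2 fold change was 0.08 (standard error 0.085, 95% interval -0.11 to 0.28, adjusted p = 0.82 from limma). *Glra2* is X-linked (chrX:165129017-165327393, minus strand), and its level ran between 7.20 and 8.22 FPKM over libraries that differed widely in Y-linked transcripts.

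*Glra3*, the alpha3 gene (chr8:55940460-56130070), was at 1.33, 1.20, and 1.05 FPKM against 1.32, 0.727, and 0.707 FPKM. Null replicates 2 and 3 lay below every control library, but null replicate 1 was level with the highest (log2 fold change -0.39, 95% interval -0.95 to 0.16, adjusted p = 0.70 from limma). Without null replicate 1 the log2 fold change of *Glra3* was -0.66 (adjusted p = 0.22 from limma), and without null replicate 3 it was -0.25, in a range of adjusted p from 0.22 to 1 over all alternatives. *Glra4*, the X-linked alpha4 gene (chrX:136757674-136780141), had FPKM of 0.130, 0.149, and 0.114 in the controls and of 0.0678, 0.0332, and 0.0866 with the null label. Its groups did not overlap (exact permutation test, two-sided p = 0.1), but about 7 to 8 fragments per control library and 1 to 4 per null-labelled library lay behind them. The log2 difference was -0.52 with a pseudocount of 0.1 FPKM and -1.07 as the ratio of group means, with no test across genes.

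*Glrb*, which encodes the beta subunit shared by synaptic glycine receptors (chr3:80843599-80913660), had FPKM of 13.7, 14.3, and 13.0 in the controls and of 14.7, 11.5, and 12.6 with the null label, which overlapped. Its log2 fold change was -0.09 (standard error 0.10, 95% interval -0.32 to 0.15, adjusted p = 0.86 from limma). Of its stretches of 50 bases, 2.65% occur in transcripts of other genes. A fall of the size seen in *Gabrr3* thus lies outside this interval, as it does for *Glra2* and *Glra3*.

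The 4 alpha genes summed to 9.94 ± 0.35 FPKM in the controls and to 9.37 ± 0.57 FPKM with the null label, and the ratio of this sum to *Glrb* was 0.728 ± 0.040 and 0.728 ± 0.046 (n = 3 each). Within that sum *Glra1* held 8.94%, 12.3%, and 9.34% in control libraries and 4.07%, 3.26%, and 3.16% in the null-labelled libraries. *Glra2* held 77.0%, 73.8%, and 78.7% and then 82.0%, 88.1%, and 88.3%, also without overlap. Relative to *Glrb*, *Glra1* was at 0.0676, 0.0839, and 0.0698 in control libraries and at 0.0276, 0.0251, and 0.0233 in the others (log2 difference -1.54, exact permutation test, two-sided p = 0.1). The ratios of *Glra2* and *Glra3* to *Glrb* overlapped between the groups.

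Of 50 other genes of inhibitory signalling, listed for GABA-A and GABA-B receptor subunits, the inhibitory postsynapse, transmitter supply, and chloride transport, 47 were tested, and 0 had an adjusted p under 0.05 from limma. At an unadjusted p under 0.05 there were 4 of the 47 (3 lower and 1 higher), against 8.15% of all genes tested. The log2 fold changes of the 47 ran from -0.42 to 0.40 with a median of -0.03. All 3 of *Gabrr3*, *Glra1*, and *Gabrr1* lay below the lowest of them.

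Of the 14 GABA-A subunit genes tested, 10 were lower and 4 higher (median log2 fold change -0.09). *Gabrb2*, a beta subunit gene, was at 5.89, 5.0, and 5.46 FPKM against 4.21, 3.86, and 4.76 FPKM, without overlap (log2 fold change -0.35, adjusted p = 0.52 from limma). *Gabra6*, a subunit known from cerebellar granule cells, was at 0 in all 6 libraries. The GABA-B subunit genes *Gabbr1* and *Gabbr2* had log2 fold changes of -0.03 and 0.16 (adjusted p = 0.94 and 0.69 from limma).

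Among 13 genes of the inhibitory postsynapse, 9 were lower and 4 higher with a median of -0.06. *Slitrk3*, an adhesion protein of inhibitory synapses, was at 4.60, 5.72, and 4.40 FPKM against 4.18, 3.18, and 3.53 FPKM (log2 fold change -0.42, adjusted p = 0.53 from limma), and *Plcl1*, which binds GABA-A receptors, had a log2 fold change of -0.23 (adjusted p = 0.66). Of the 11 genes for making, packing, and taking up GABA and glycine, 10 had higher means in the null-labelled libraries (median 0.12). *Gad2*, a GABA-synthesizing enzyme, was at 5.01, 5.23, and 4.98 FPKM against 7.71, 6.56, and 5.97 FPKM, without overlap (log2 fold change 0.40, unadjusted p = 0.0078, adjusted p = 0.41 from limma). *Abat*, which breaks GABA down, had a log2 fold change of 0.19 (adjusted p = 0.66). In the chloride transport list 4 of the 7 genes tested were lower, with a median of -0.06, and the largest differences at a mean of at least 1 FPKM were 0.24 for *Slc12a7* and 0.21 for *Slc12a4*, both potassium-chloride cotransporters, at adjusted p-values of 0.69 and 0.74 from limma.

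**Figure D3:**
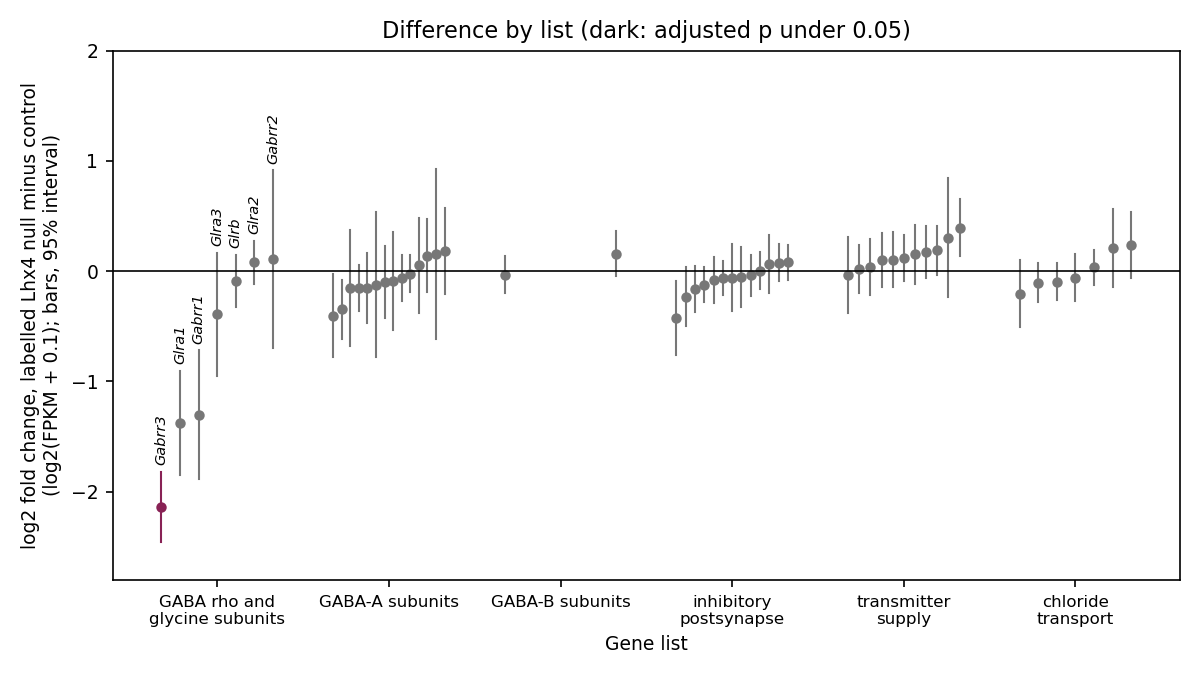
Log2 fold change on the log2(FPKM + 0.1) scale, labelled Lhx4 null minus control, for the 7 subunit genes tested and for 5 other lists of inhibitory genes, with 1 point per gene and its 95% interval from limma. Gabrr3, in dark, is the only point with an adjusted p under 0.05, and Glra1 and Gabrr1 at -1.37 and -1.30 also lie below the -0.42 to 0.40 of the other lists.

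To set the subunits beside cell markers, each was divided by *Grm6*, the glutamate receptor of ON-BCs, and by *Slc32a1*, the vesicular transporter of GABA and glycine in ACs. The log2 fold changes of these denominators were -1.49 for *Grm6* and 0.12 for *Slc32a1* (limma, adjusted p = 0.0091 and 0.75). Relative to *Slc32a1*, *Gabrr3* was lower by a log2 difference of -2.31, *Glra1* by -1.75, and *Gabrr1* by -1.43, each without overlap. Relative to *Grm6* none of the 3 was separated: *Gabrr3* differed by -0.69, *Glra1* by -0.13, and *Gabrr1* by 0.18, and the groups overlapped (exact permutation tests, two-sided p = 0.2, 0.4, and 0.5). With 3 libraries a group, the overlap does not show that these genes moved as *Grm6* did.

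Relative to *Grm6*, *Glra2* and *Glrb* were higher without overlap, by log2 differences of 1.58 and 1.41. Beside *Slc32a1*, *Glra2* differed by -0.04 and overlapped, whereas *Glrb* was lower by -0.21 without overlap, at -0.28, -0.34, and -0.31 in control libraries against -0.39, -0.76, and -0.40 on the log2 scale. The ratios to markers share their denominators and so are not independent of each other.

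**Figure D4:**
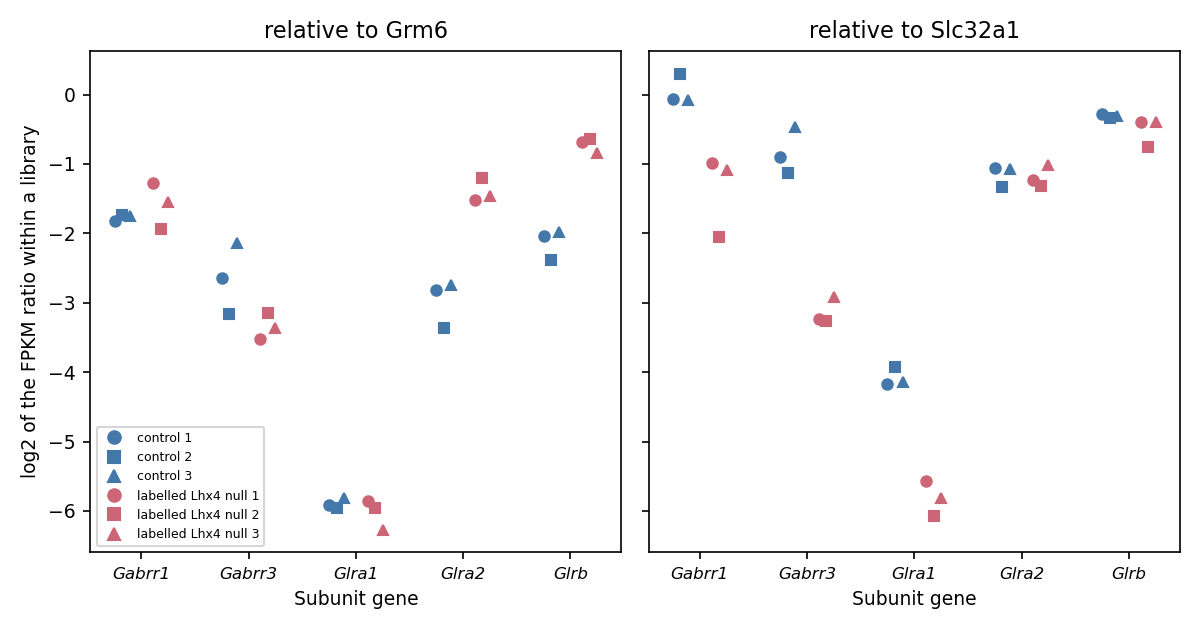
Log2 of the FPKM ratio of 5 subunit genes to Grm6 (left) and Slc32a1 (right) within each library (blue, control; red, labelled Lhx4 null; marker shape, replicate number). Gabrr1, Gabrr3, and Glra1 separate by group relative to Slc32a1 and overlap relative to Grm6.

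The genes most like the 3 subunits in pattern were found by Pearson's r of log2(FPKM + 0.1) over the 6 libraries among 12479 genes, as a description, since r ignores the size of change and with 6 libraries mostly follows the difference between the groups. For *Gabrr3* they were *Chchd3* (r = 0.999), *Klhl8* (0.993), *Slitrk6* (0.992), *Zfhx4* (0.990), and *A730046J19Rik* (0.988). The last 3 had log2 fold changes of -1.34 to -1.45 at adjusted p-values of 0.0020 to 0.0043 from limma, whereas *Chchd3* and *Klhl8* differed by -0.13 and -0.32. For *Glra1* they were *Smug1* (0.998), *Samsn1* (0.992), *Chid1* (0.990), *Grm6* (0.989), and *Cdh8* (0.988), and for *Gabrr1* they were *Ccdc74a*, *Fmn1*, *Lin7a*, *Amph*, and *Ppp2r5a*, with r of 0.991 to 0.997. Between the subunits themselves r was 0.85 for *Gabrr1* and *Gabrr3*, 0.95 for *Gabrr1* and *Glra1*, and 0.94 for *Gabrr3* and *Glra1*.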

How the data were processed

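The authors mapped paired-end reads of TruSeq libraries and estimated expression as FPKM; the submitters' processing notes name TopHat2, Cufflinks, and GRCm38, and versions, annotation, and use of strand are not given in the sources used here. The deposited FPKM were compared as log2(FPKM + 0.1) with limma 3.58.1 in R 4.3.3 (lmFit, eBayes with a mean-variance trend; all 6 libraries, no covariate), over 15200 genes (mean FPKM 0.1 or more), with Benjamini-Hochberg adjustment over all of them and two-sided p-values. No count model was fitted, as FPKM are not counts. Of 21744 identifiers, 21603 were found in GENCODE vM21, 21025 with the same symbol. Fragment numbers came from the steps of values under 0.1 FPKM (ratios equal within 0.1%) and GENCODE transcript lengths, and they cover counting error only. Of identifiers sharing a symbol, the most abundant was used. The fit and the step method were tested on simulated data. The members, gene lists, and alternatives were chosen with earlier results of these data known. Named were the 8 members, *Lhx4*, the marker denominators, *Ddx3y*, up to 2 genes of each inhibitory list with the largest change at a mean of at least 1 FPKM, and the 5 genes most like a member without overlap; *Xist* was not analysed here, some named items are not reported here, and *Gabra6*, *Bhlhe23*, *Opn1sw*, *Arr3*, *Opn1mw*, *Sebox*, *Lrtm1*, *Cabp5*, *Eif2s3y*, *Kdm5d*, and *Uty* were named after their values were seen. Per the study's methods, each library is from another mouse. Replicate numbers do not pair mice in the labels. The motifs were chosen after the values were seen. Plots were drawn with Python 3.11.15 and matplotlib 3.10.9. Alternatives changed the pseudocount (1 or 0.01 FPKM), the filter (none or 1 FPKM), the scaling (median of ratios or quantiles), the trend, a replicate block, a term for the set of shared steps, and the libraries, each left out in turn.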

Additional observations from a re-analysis of the deposited data

How the results depend on the processing

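Over 15 alternative fits *Gabrr3* had a log2 fold change between -2.23 and -1.77 (adjusted p from 0.00060 to 0.093, limma), and it lost its call in 1 of them, without the filter on low values (log2 fold change -2.14), where 0 of 21744 genes were called and 1507 had an unadjusted p under 0.05. That fit called 0 of the 8 subunit genes, and those with the pseudocount at 1 FPKM and with no variance trend called 2, adding *Glra1* at log2 fold changes of -0.60 and -1.37. *Gabrr1* was not called in any fit (adjusted p from 0.075 to 0.55). As ratios of group means, with no pseudocount, *Glra1* was at -1.62 and *Glra4* at -1.07, and *Glra4* was at -0.090 and -1.03 with pseudocounts of 1 and 0.01 FPKM. *Gabrr2* changed sign without control replicate 1 (-0.17) and without null replicates 1 (-0.07) and 3 (-0.09), and reached 0.48 without null replicate 2. The median of the subunit genes was -0.21 with a pseudocount of 1 FPKM, -0.24 with a mean of at least 1 FPKM, and -0.47 with the set of shared steps as a term, an alternative added after the data were seen; leaving out 1 library it ran from -0.60 (without null replicate 1) to -0.25 (without null replicate 3). Of all genes tested, 34 were called. Leaving out 1 library gave 15 to 31 calls: 16, 20, and 17 without control replicates 1, 2, and 3, and 31, 17, and 15 without null replicates 1, 2, and 3. With the replicate block 15 genes were called, and no call of a subunit gene changed; same-numbered libraries deviated together with r of -0.18, -0.05, and 0.19, so the numbers were not taken as pairs. The cause of these changes was not tested. With a mean of at least 1 FPKM *Glra1* and *Glra4* had no value. Depth limits *Glra4* and *Glra1* most.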
